A study of Mus musculus with 4 samples.

Results

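The genes described here make bone matrix mineralise or mark the osteocyte, the cell that becomes enclosed in that matrix. Of 10 genes listed for this purpose, 8 had at least 1 probe set (a group of probes read as 1 value) annotated to them alone, 14 probe sets in all, of 18193 genes and 45037 probe sets. The 8 were Ibsp, Dmp1, Mepe, Phex, Alpl, Smpd3, Ifitm5 and Pdpn. Phospho1 was read only by a probe set that is also annotated to Zfp652, and Enpp1 was not analysed here. The rule takes genes by name and uses no measured value, but the genes were chosen with earlier results of these data known.

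The cells came from the bone marrow of adult NOD/SCID mice (strain NOD.CB17-Prkdc scid/J), which the submitters' design text calls recipients. All 4 samples were sorted for the integrin CD51 and against CD45, CD31, Sca1 and the lineage antigens of blood cells, a gate meant for osteoblasts. The groups compared each had 2 arrays that the labels call biological replicates: cells from the trabecular bone area and cells from the long bone area. The labels do not say which or how many mice each array came from, so p-values measure only the spread between these samples. CD51 is not limited to osteoblasts, and osteoclasts and other stromal cells carry it too.

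Bone mineral forms when phosphate and calcium precipitate inside small vesicles and then on collagen. Alkaline phosphatase (Alpl) degrades pyrophosphate, an inhibitor of mineral that Enpp1 makes, while Smpd3 and Phospho1 act in turn to free phosphate from membrane lipids. Ibsp, Dmp1 and Mepe are acidic, phosphorylated proteins of the matrix, and Phex is a membrane peptidase that protects against mineral-blocking peptides cut from such proteins. Osteoblasts early in the lineage carry Alpl, mature ones make Ibsp and Ifitm5, and osteocytes make Dmp1, Mepe and Phex, with Pdpn on the cells that are just being enclosed.

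Each deposited value is a log2 value from which the 4-array median of its probe set was subtracted. Such values give differences between arrays and no level, and no gene is described as present or absent. A coarse band of the level could be read from the rounding step of the stored numbers. By that reading 12 of the 14 member probe sets lay at 4 to 8 on the log2 scale on at least 1 array, the probe set of Alpl lay at 8 and above, and 1 of Dmp1 could not be read. For the gate itself, both probe sets of Col1a1, the main bone collagen, were read at 8 and above, as was 1 of 2 for Ptprc, which encodes the excluded CD45. Long bone array 2 stood apart from the others. It had 2493 probe sets 2-fold or more away from the median, where the other 3 had 383 to 848. For the Gapdh control, the centred 5' value minus the centred 3' value was -1.16 there and -0.09 to 0.31 on the rest, a deviation from the other arrays and not a ratio of levels. The spiked hybridisation controls, 9 probe sets, differed between the areas by a median of -0.39 on the log2 scale, each of them without overlap. The part of these features in the results below was not tested. For the 8 genes the range with 1 array left out is given at the end. For related genes picked by size of difference, the value with 1 array left out is given where it shrank by over 1.5 times. Some of these also grew by as much without another array, and that growth is not listed.

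All 8 genes had a lower mean in the trabecular than in the long bone area, and for 6 of them the arrays of the areas did not overlap. Lower means of any size were found for 45.4% of all genes, and lower values with no overlap for 21.4%. The choice of the 8 genes was not blind to these data, so the shares only describe them. The median log2 difference of the 8 genes was -0.50, against 0.03 over all genes. Of the 14 member probe sets 13 had a lower mean in the trabecular area, against 51.1% of all probe sets. Among them 10 were lower with no overlap (26.2% of all) and 1 was higher with no overlap (25.9% of all). A lower value of at least 2-fold with no overlap was read by 4 of the 14, from Ibsp, Dmp1 and Phex, against 2.71% of all probe sets. None of the 8 genes or 14 probe sets passed the test. In limma with Benjamini-Hochberg adjustment over all genes, 0 of 18193 genes (0%) had an adjusted p under 0.05. At an unadjusted p under 0.05 there were 2 of the 8, Ibsp and Dmp1, against 15.5% of all genes, and 3 of the 14 probe sets, against 16.3% of all. With 2 arrays per area an exact two-sided permutation test cannot go below p = 0.333. In sorted bulk samples, fewer cells of a type and less RNA per cell cannot be told apart.

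**Figure D1:**
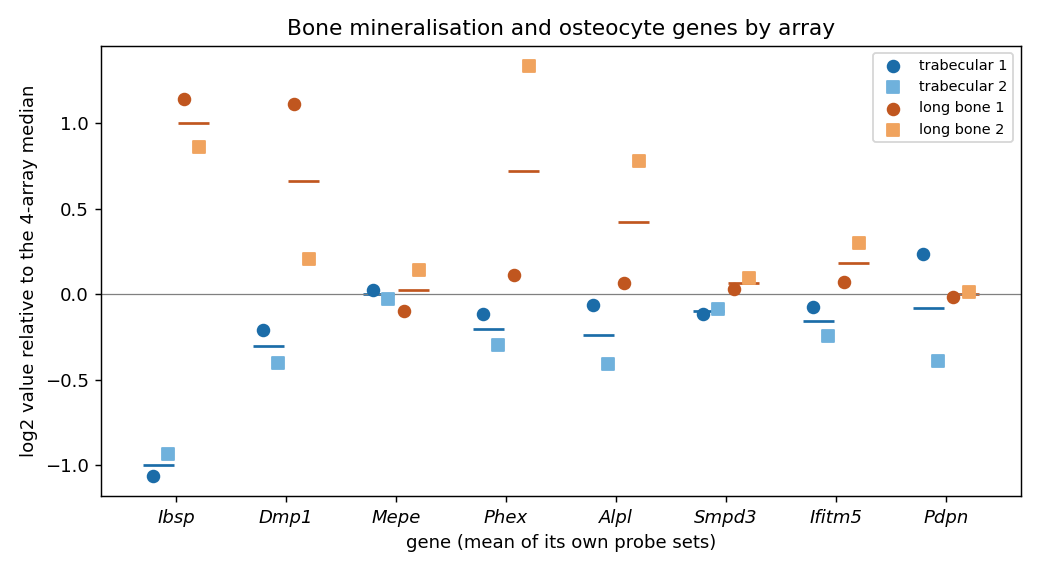
The vertical axis is the log2 value relative to the 4-array median, for each gene on the horizontal axis (mean of its own probe sets), with 1 point per array and a bar at the mean of each area. Ibsp has its trabecular arrays at -1.06 and -0.94 and both long bone arrays between 0.86 and 1.14, Dmp1 is highest on long bone array 1, Phex and Alpl are highest on long bone array 2, and Mepe and Pdpn overlap.

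Ibsp, bone sialoprotein, binds collagen and starts mineral crystals, and it had the largest difference of the 8 genes. Trabecular arrays 1 and 2 read -1.06 and -0.94, and long bone arrays 1 and 2 read 1.14 and 0.86. Values below keep this order of arrays. The areas lay far apart compared with the spread inside each of them. The means with SD were -0.999 ± 0.09 for the trabecular and 0.999 ± 0.20 for the long bone arrays (n = 2 per area). The log2 difference was -2.0 (95% interval -2.41 to -1.59, SE 0.16), which ranks 60th from the lowest among all genes, with a limma adjusted p of 0.131. Leaving out any 1 array kept the difference between -2.14 and -1.86. The adjusted p changed more. It was 0.754 and 0.62 without trabecular arrays 1 and 2, 0.0358 without long bone array 1, a fit that called 1603 genes in all, and 0.061 without long bone array 2. It was 0.022 when limma's prior variance followed a trend, with 40 genes called, and 0.428 with the ordinary statistic.

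The gene value of Ibsp averages 2 probe sets that read very different sizes. Probe set 1417484_at was at -2.02 and -1.61 in the trabecular area and at 2.06 and 1.61 in the long bone area. It was 12.5-fold lower in the trabecular area (log2 difference -3.65, 95% interval -4.30 to -2.99), the 27th lowest of all probe sets. Probe set 1417485_at was at -0.11 and -0.26 against 0.23 and 0.11, a log2 difference of -0.35. The adjusted p values were 0.121 and 0.328 in limma over all probe sets, of which 0 (0%) were called. Both probe sets separated the areas with no overlap, and they are annotated to the same source sequence. The gap between them was 3.30 on the log2 scale. Among 9010 genes with more than 1 probe set the median gap was 0.42, and 17 genes had a gap as wide or wider. The fold of Ibsp therefore depends on the probe set used, while its direction does not.

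Dmp1, dentin matrix protein 1, is made by osteocytes and binds calcium in the matrix. The mean of its 3 probe sets was -0.21 and -0.40 in the trabecular area and 1.11 and 0.21 in the long bone area. Only long bone array 1 stood far from the rest. The log2 difference was -0.96 (95% interval -1.84 to -0.09, SE 0.33, limma adjusted p = 0.302), and it was -0.51 without long bone array 1. With long bone array 2 left out instead it was -1.42. Its probe sets did not read alike. Probe set 1443746_x_at was at -0.59 and -0.95 against 1.40 and 0.59, a 3.39-fold lower value in the trabecular area that was still at -1.36 without long bone array 1. Probe set 1443745_s_at was at -0.04 and -0.22 against 1.79 and 0.04, so that its difference of -1.04 came from 1 array and was -0.17 without it. Probe set 1426005_at was at 0.01 and -0.04 against 0.15 and -0.01, with a difference of -0.09 and overlapping areas. In the maker's naming, the endings _s_at and _x_at mark probe sets that may read more than 1 transcript. Without such probe sets Dmp1 was left with 1426005_at alone.

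Mepe, a matrix protein whose cleaved tail binds mineral and blocks it, did not separate the areas. Its 1 probe set was at 0.03 and -0.03 in the trabecular area and -0.10 and 0.14 in the long bone area. The trabecular values lay between the long bone values. The log2 difference was -0.02 (95% interval -0.40 to 0.36, limma adjusted p = 0.949). The gene mean difference of Ibsp, -2.0, lay outside this interval, and the -0.35 of Ibsp probe set 1417485_at lay inside it. The Mepe probe set was read at 4 to 8 on the log2 scale, and how well it detects the transcript was not tested. The sign of the Mepe difference turned, to 0.01 after quantile normalization and to 0.10 without long bone array 2.

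**Figure D2:**
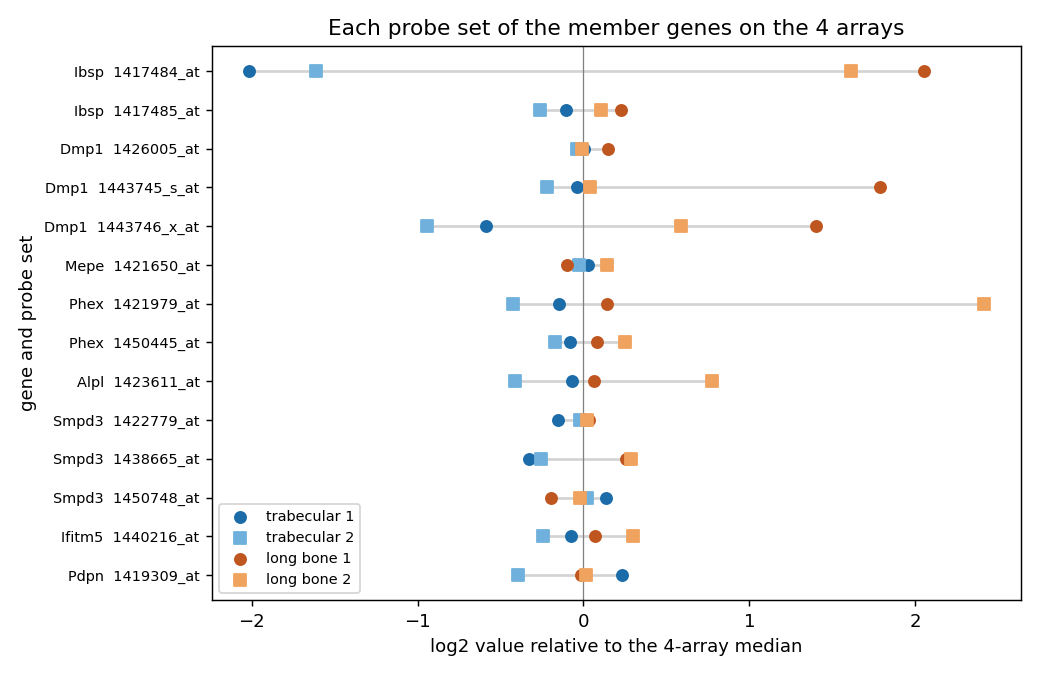
The horizontal axis is the log2 value relative to the 4-array median, and each row is 1 probe set of a member gene with 1 point per array. The widest separation is that of Ibsp 1417484_at (log2 difference -3.65), while Dmp1 1443745_s_at and Phex 1421979_at each have 1 long bone array far from the other arrays.

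Dmp1, Ibsp and Mepe are next to each other on mouse chromosome 5, in a cluster of genes for secreted phosphoproteins. In the RefSeq gene order of GRCm38.p6, counting protein-coding genes, the cluster runs Sparcl1, Dspp, Dmp1, Ibsp, Mepe and Spp1. The log2 difference was -0.94 for Sparcl1, which encodes a matrix glycoprotein related to osteonectin, and -0.25 for Dspp, the gene of the main phosphoprotein of dentin. Dspp overlapped between the areas and Sparcl1 did not, but Sparcl1 was at -0.46 without long bone array 2. Outside the cluster, Nudt9 and Hsd17b11 on the side of Sparcl1 differed by 0.35 and 0.57, in the other direction. Thoc2l and Zfp33b, past Spp1, differed by -0.20 and 0.05 and overlapped. Spp1, Pkd2 and Gm17660 were not analysed here. Within the run, Ibsp and Mepe are direct neighbours with differences of -2.0 and -0.02.

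The promoter windows of these 3 neighbours are shown because they set the member with the largest difference beside the one with the smallest. Each window, from RefSeq on GRCm38.p6, runs from 250 bases before to 50 bases after an annotated start. All are on the plus strand, and capitals mark the motif CCAAT in either orientation. The windows are chr5:104299037-104299336 for Ibsp, chr5:104197325-104197624 and chr5:104202367-104202666 for the first and second start of Dmp1, and chr5:104325079-104325378 for Mepe.
Ibsp: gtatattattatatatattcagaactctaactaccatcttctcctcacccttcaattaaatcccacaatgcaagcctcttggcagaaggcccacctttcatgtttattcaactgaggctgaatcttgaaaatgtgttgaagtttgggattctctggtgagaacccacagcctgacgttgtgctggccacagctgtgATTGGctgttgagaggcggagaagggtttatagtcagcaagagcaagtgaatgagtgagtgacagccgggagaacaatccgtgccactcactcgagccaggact
Dmp1 first start: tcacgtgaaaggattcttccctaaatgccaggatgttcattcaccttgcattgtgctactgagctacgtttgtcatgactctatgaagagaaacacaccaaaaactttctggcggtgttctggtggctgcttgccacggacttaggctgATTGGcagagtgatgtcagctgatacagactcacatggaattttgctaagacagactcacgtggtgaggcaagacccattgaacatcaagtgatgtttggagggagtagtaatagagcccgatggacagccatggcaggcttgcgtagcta
Dmp1 second start: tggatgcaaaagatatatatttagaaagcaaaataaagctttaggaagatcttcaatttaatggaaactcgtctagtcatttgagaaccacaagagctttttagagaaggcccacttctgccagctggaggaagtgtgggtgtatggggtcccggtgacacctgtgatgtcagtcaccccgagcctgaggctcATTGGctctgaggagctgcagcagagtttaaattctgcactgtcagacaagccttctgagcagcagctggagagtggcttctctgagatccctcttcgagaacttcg
Mepe: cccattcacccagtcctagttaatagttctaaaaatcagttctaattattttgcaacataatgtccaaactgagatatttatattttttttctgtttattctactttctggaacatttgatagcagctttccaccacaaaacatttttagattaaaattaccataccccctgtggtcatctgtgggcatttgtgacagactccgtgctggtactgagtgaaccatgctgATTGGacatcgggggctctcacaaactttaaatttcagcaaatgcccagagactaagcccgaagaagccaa

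Each of these 4 windows held CCAAT 1 time, as ATTGG on the printed strand. It began 54 bases before the start in Ibsp, 101 and 57 before the first and second start of Dmp1, and 21 before that of Mepe. The motif was in 5 of the 11 windows found for 9 of the 10 listed genes, the other being that of Phospho1, and in 37.4% of all 32851 windows. The motif TATAAA, searched on both strands, was found as TTTATA 28 bases before the start of Ibsp and 173 before that of Mepe, and not in the windows of Dmp1. It was in 13.6% of all windows. ACCACA, the core of the motif of RUNX factors, occurred 2 times in the Mepe window, 1 time in that of the second Dmp1 start and not in that of Ibsp, against 16.8% of all windows with at least 1. TGACTCA, the AP-1 motif, was in none of the 4 windows and in 5.2% of all. All searches covered both strands, and no matches of different motifs overlapped in these 4 windows. CCAAT was found in the window of the member with the largest difference and in that of Mepe. Any link between these motifs and the differences was not tested.

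Phex, the membrane peptidase whose loss causes a form of rickets with phosphate wasting, followed long bone array 2. The mean of its 2 probe sets was -0.11 and -0.30 in the trabecular area and 0.11 and 1.33 in the long bone area. The other arrays lay close together, with long bone array 2 far above. The log2 difference was -0.93 (95% interval -2.06 to 0.20, SE 0.43, limma adjusted p = 0.374), and it was -0.32 without long bone array 2. Without long bone array 1 it was -1.54, with an adjusted p of 0.0358 in the fit that called 1603 genes. The adjusted p was 0.754 and 0.88 without trabecular arrays 1 and 2, and 0.472 without long bone array 2. Probe set 1421979_at was at -0.15 and -0.43 against 0.15 and 2.41, and its difference of -1.56 was -0.43 without long bone array 2. Probe set 1450445_at was at -0.08 and -0.17 against 0.08 and 0.25, a smaller difference of -0.29 in the same direction.

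Alpl, the alkaline phosphatase of mineralising cells, was at -0.07 and -0.41 in the trabecular area and 0.07 and 0.78 in the long bone area. Its areas did not overlap, but trabecular array 1 and long bone array 1 were only 0.13 apart. The log2 difference was -0.66 (95% interval -1.42 to 0.11, SE 0.29, limma adjusted p = 0.362). Leaving out long bone array 2 gave -0.30, and leaving out long bone array 1 gave -1.01. Its probe set was the only 1 of the 14 read at 8 and above.

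Smpd3, the neutral sphingomyelinase that frees phosphocholine for Phospho1, had 3 probe sets that went in different directions. Probe set 1438665_at was at -0.33 and -0.26 in the trabecular area and at 0.26 and 0.29 in the long bone area. It was tight within both areas, with a log2 difference of -0.56 (95% interval -0.90 to -0.22, limma adjusted p = 0.214) that stayed between -0.60 and -0.53 with any 1 array left out. Probe set 1450748_at ran the other way, at 0.14 and 0.02 against -0.20 and -0.02, a difference of 0.19. Probe set 1422779_at was at -0.15 and -0.02 against 0.04 and 0.02, a difference of -0.12. The mean of the 3 gave -0.16 (95% interval -0.48 to 0.15, limma adjusted p = 0.533). The gene mean was therefore smaller than the difference of the steadiest probe set. For Phospho1, the phosphatase that acts next, the probe set shared with Zfp652 was at 0.01 and 0.09 against -0.01 and -0.13, and which of these genes it read cannot be told apart.

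Ifitm5, a small membrane protein limited to bone-forming cells and mutated in a brittle bone disease, was at -0.07 and -0.24 in the trabecular area and 0.07 and 0.30 in the long bone area. The areas did not overlap, and the log2 difference was -0.34 (95% interval -0.74 to 0.06, SE 0.15, limma adjusted p = 0.362). It was between -0.45 and -0.23 with any 1 array left out.

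Pdpn, podoplanin, is needed for the dendrites of young osteocytes and also marks lymphatic vessels and reticular fibroblasts. It was at 0.23 and -0.39 in the trabecular area and -0.02 and 0.02 in the long bone area. The trabecular arrays lay on either side of both long bone arrays, so the areas overlapped. The log2 difference of -0.08 (95% interval -0.71 to 0.55, limma adjusted p = 0.894) turned to 0.23 without trabecular array 2. Lymphatic endothelial markers had list medians of -0.08 to 0.03 on the trabecular and 0.00 to 0.10 on the long bone arrays, with 3 of 5 measured genes overlapping. These vessels carry CD31, an antigen the gate was set against. The 1 probe set of the CD31 gene, Pecam1, was read at 4 to 8 on the log2 scale. Reticular and synovial fibroblast markers, 7 of 8 measured genes with a lower trabecular mean and 3 of these without overlap, had list medians of 0.01 and -0.13 against -0.01 and 0.58. Their median difference of -0.45 was -0.11 without long bone array 2. Of all genes 21.4% were lower without overlap. The part of lymphatic vessels and of these fibroblasts in the value of Pdpn was not tested.

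**Figure D3:**
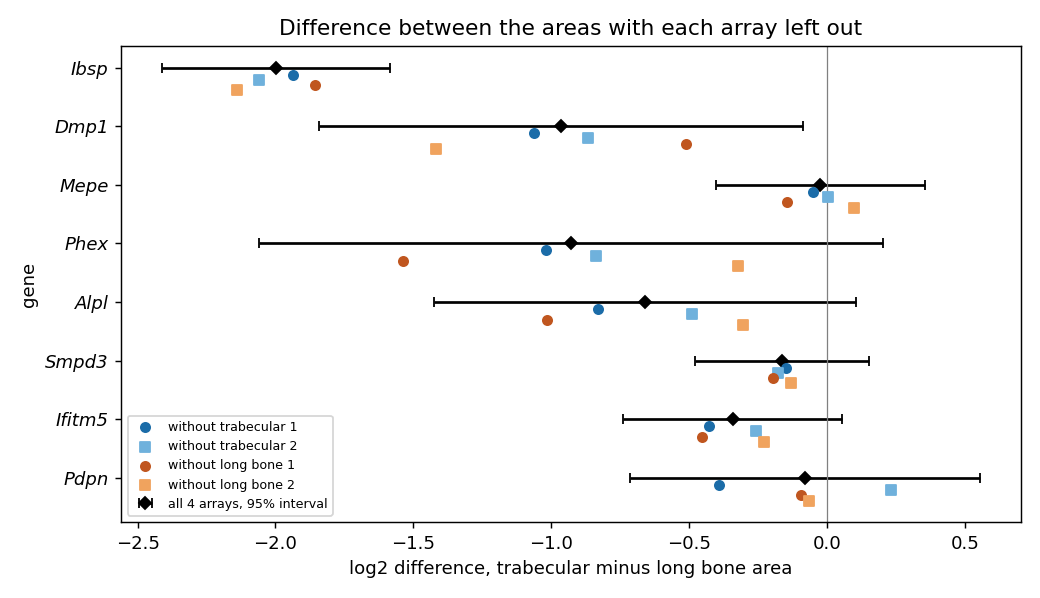
The horizontal axis is the log2 difference, trabecular minus long bone area, for each gene on the vertical axis, with a black diamond and 95% interval from all 4 arrays and coloured points with 1 array left out. Ibsp stays between -2.14 and -1.86, while Phex moves from -0.93 to -0.32 and Alpl from -0.66 to -0.30 without long bone array 2.

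The array with the highest value differed among the 8 genes. Ibsp and Dmp1 were highest on long bone array 1, Mepe, Phex, Alpl, Smpd3 and Ifitm5 on long bone array 2, and Pdpn on trabecular array 1. Of all genes 35.2% were highest on long bone array 2. Reticular stroma markers moved with that array. Their list median, over 10 of 10 genes, was 0.10 and -0.58 in the trabecular area, and -0.16 and 1.64 in the long bone area. The median difference of -1.08 was -0.06 with long bone array 2 left out. Osteoblast markers, 7 measured of 13 listed, all had a lower trabecular mean, 6 of them without overlap. Over all genes, 21.4% were lower without overlap. The osteoblast list medians were -0.49 and -0.24 against 0.24 and 0.49. Their median difference of -1.02 was -0.57 without long bone array 2. Cartilage markers, of which 15 of 15 had lower trabecular values without overlap, had list medians of -1.42 and -1.33 against 1.66 and 1.26, a pattern with a high value on both long bone arrays like that of Ibsp. Hypertrophic cartilage cells also make Ibsp, Alpl and Phex. Of their 8 measured markers, Ibsp itself among them, 7 had a lower trabecular mean, 5 of these without overlap, and the median difference was -0.50. The collagenase gene Mmp13 differed by -3.95, Pth1r by -1.09, the channel gene Panx3 by -0.62 and Sp7 by -0.38, each without overlap, while Runx3 was higher by 0.35. The collagen gene Col10a1 was at -0.01 and 0.01 in the trabecular area against -0.04 and 0.58, and the secreted signal Ihh was at 0.00 and -0.14 against 0.00 and 0.02. The part of osteoblasts, cartilage and stromal cells in the values of the 8 genes was not tested.

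The genes whose 4 array values lay closest to those of Ibsp were matrix genes and others. By Euclidean distance over the 4 arrays the nearest were Dcn (distance 0.33) and Lrp1 (0.35), then Cpe (0.37), 2900055J20Rik (0.39) and Lum (0.39). Dcn and Lum encode small proteoglycans that bind collagen fibrils, Lrp1 an endocytic receptor and Cpe a carboxypeptidase of the secretory pathway. Their log2 differences were -2.19, -1.78, -2.21, -2.37 and -1.69 in that order. The distance was taken to the mean of the 2 Ibsp probe sets. These differed by -3.65 and -0.35, so neither read the size that was matched. With 4 arrays, such likeness is a description of size and direction only.

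Other bone matrix genes differed in the same direction and by more. Of 15 listed genes 4 were not analysed here, namely Spp1, Bglap, Bglap2 and Bglap3, so nothing below covers them. All 11 measured genes had a lower trabecular mean, 10 of them without overlap, against 21.4% of all genes. The median difference of the 11 was -2.19 on the log2 scale. None passed the test over all genes. Chad, a leucine-rich protein of cartilage and bone, differed by -3.32 (limma adjusted p = 0.24). Mgp, which inhibits mineral in cartilage and vessels, was at -1.43 and -0.95 against 1.98 and 0.95, a difference of -2.65. The proteoglycan Bgn differed by -2.60 and the collagen chain Col1a2 by -2.46. Chad is also on the cartilage marker list. That list, with 15 of 15 genes lower without overlap and a median of -3.04, moved in the same direction as this one, and its part here was not tested. Fam20c, the kinase that phosphorylates Ibsp, Dmp1 and Mepe, differed by -0.07 and overlapped.

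Genes that carry or sense phosphate, pyrophosphate and calcium went both ways. Of 23 measured genes 15 were lower and 8 higher in the trabecular area, with 8 and 4 of these not overlapping, a median of -0.07 and 0 called. Lower values with no overlap were found for 21.4% of all genes, and higher values with no overlap for 29.9%. Pth1r, the parathyroid hormone receptor, was at -0.29 and -0.44 against 0.29 and 1.17, a difference of -1.09 that was -0.65 without long bone array 2. Ank, which exports pyrophosphate or its precursor, was at -0.24 and -0.25 against 1.21 and 0.24, a difference of -0.97 that was -0.49 without long bone array 1. The vitamin D receptor gene Vdr differed by -0.46 and Fgfr1, a receptor for FGF23, by -0.41. In the other direction Entpd1, an enzyme that degrades extracellular ATP, differed by 0.74 and the annexin Anxa5, a protein of matrix vesicles, by 0.44. Without long bone array 2 Vdr was at -0.22 and Anxa5 at 0.20, and without trabecular array 1 Entpd1 was at 0.47. Each of these 6 had a limma adjusted p of 0.273 or more. The phosphate carriers Slc20a1 and Slc20a2 differed by -0.07 and -0.13, and Fgf23, the phosphate hormone of osteocytes, by -0.02.

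The lipid route around Smpd3 and Phospho1 was mostly higher in the trabecular area, unlike Smpd3 itself. Of 16 measured genes 13 were higher, 10 with no overlap, against 29.9% of all genes. The other 3 were lower, and the list had a median of 0.44 and 0 called. Has2, which makes hyaluronan, was listed with this group and is part of its counts and median. It differed by 0.75, and Smpd2, another neutral sphingomyelinase, by 0.67 (limma adjusted p = 0.243 and 0.282). Without long bone array 2 the median was 0.20 and Smpd2 was at 0.43.

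Of 19 further osteocyte genes, 17 were lower, 10 with no overlap, and 2 higher, both with no overlap. The median of the 19 was -0.28 and 0 were called. Lower and higher values with no overlap were found for 21.4% and 29.9% of all genes. Ackr3, a scavenging receptor for CXCL12, was at -0.98 and -1.19 against 2.37 and 0.98, a difference of -2.75 (limma adjusted p = 0.24). Tnc, an adhesive glycoprotein, differed by -2.43 and Gja1, the gap junction protein that joins osteocytes, by -1.89. Tnfrsf11b, the inhibitor of osteoclast formation, had a difference of -1.16 with long bone array 1 at 1.97, and without that array it was at -0.20. Cd44, a hyaluronan receptor, and Capg, an actin-capping protein, were higher by 0.64 and 0.45, and blood cells also make both. The part of blood, stromal and cartilage cells in the higher and lower values of this list was not tested. Gja1 was at -1.17 and Capg at 0.25 without long bone array 2, and Cd44 at 0.39 without trabecular array 1. Sost, the Wnt inhibitor of mature osteocytes, differed by -0.01. Sost, Fgf23 and Mepe, made by osteocytes deep in the bone, had differences of -0.01, -0.02 and -0.02. They were grouped after their values were seen. The centred values give no level for them, beyond the coarse band of 4 to 8 read for Mepe. Dmp1 and Phex, which osteocytes also make, differed by -0.96 and -0.93.

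Transcription factors of the lineage differed less than the matrix genes. Of 10 measured, 8 were lower and 2 higher, with 3 lower and 1 higher not overlapping, a median of -0.11 and 0 called. Over all genes, 21.4% were lower and 29.9% higher with no overlap. Sp7, needed for osteoblasts to form, was at -0.21 and -0.15 against 0.15 and 0.24, a difference of -0.38 (limma adjusted p = 0.291). Zfp521 differed by -0.51, Dlx5 by -0.36 and Atf4, which was higher, by 0.36. Dlx5 was at -0.14 without long bone array 2 and Atf4 at 0.18 without trabecular array 1.

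**Figure D4:**
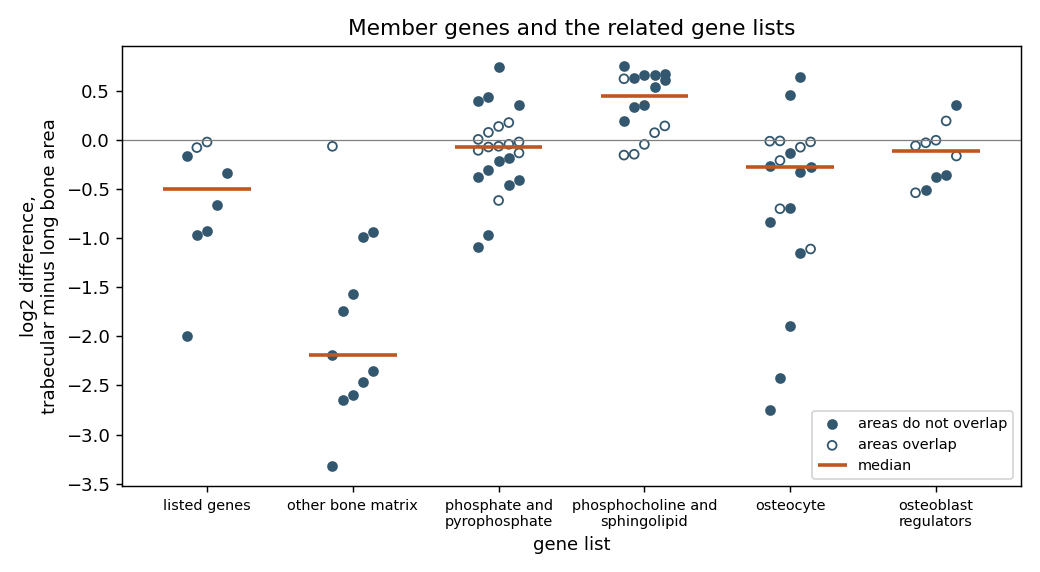
The vertical axis is the log2 difference, trabecular minus long bone area, with 1 point per gene for the 8 member genes and the related lists, filled where the areas do not overlap and open where they do, and a bar at the median. The medians are -0.50 for the member genes, -2.19 for other bone matrix genes, -0.07 for phosphate and pyrophosphate genes, 0.44 for the phosphocholine and sphingolipid route, -0.28 for osteocyte genes and -0.11 for osteoblast regulators.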

How the data were processed

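RNA of the sorted cells was amplified and read on biotin-labelled arrays, per the labels. A human chip is given in the design text, while the probe sets of the table are those of a mouse chip. The deposited values are log2 expression made with RMA, per the submitters' processing notes. They were centred per probe set before deposit (all 45101 have a median of 0 over the 4 arrays), while the log base, the version and the centring software were not given in the sources used here. Differences between arrays are kept by centring, and levels are not.

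Of 45037 probe sets left after 64 controls, 34945 had 1 gene. A gene's value was the mean of its own probe sets. The area contrast was fitted in limma 3.58.1 (R 4.3.3) (2 residual degrees of freedom, no replicate block), trabecular minus long bone, with Benjamini-Hochberg adjustment over all genes or all probe sets and a threshold of 0.05. The fits were tested on simulated data. Bands of the level came from the step of the stored single-precision numbers and were read for probe sets with 3 or more values whose size reached 0.001. Named genes were all members, per related list up to 4 lower and 2 higher genes of largest difference with no overlap, and the 5 genes nearest to Ibsp. Other list genes with values were chosen after these were seen. The members and lists were chosen with earlier results of these data known. Blood vessel, neutrophil, macrophage, erythroid and B lineage markers had median differences of 0.04, 0.06, 0.11, -0.14 and -0.09. Those of fibroblastic reticular cells and of osteoblasts were -0.45 and -1.02, and that of hypertrophic cartilage, which holds Ibsp itself, was -0.50. The median difference was -0.11 for lymphatic, -1.08 for reticular stroma and -3.04 for cartilage markers.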

Additional observations from a re-analysis of the deposited data

How the results depend on the processing

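The number of arrays limits every value here, and the deposited table allowed no other background correction. With 1 array left out the lone array of an area is assumed to vary like the others. The count of genes called, 0 with all arrays, was 0 to 1603 with 1 array left out (1603 without long bone array 1, 1 without long bone array 2). It was 40 with a trend in the prior variance, 1 with the ordinary statistic, 2 with the probe set of largest SD per gene and 1 without _s_at, _x_at and _a_at probe sets. Of the members, Ibsp and Phex were called without long bone array 1, and Ibsp (-2.0) with the trend.

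With 1 array left out the difference ranged from -2.14 to -1.86 for Ibsp, -1.42 to -0.51 for Dmp1, -1.54 to -0.32 for Phex, -1.01 to -0.30 for Alpl, -0.20 to -0.13 for Smpd3 and -0.45 to -0.23 for Ifitm5. Signs turned for Mepe (-0.14 to 0.10, and 0.0057 after quantile normalization) and Pdpn (-0.39 to 0.23). The count of member genes lower with no overlap was 6 to 7 with 1 array left out, and 5 without _s_at, _x_at and _a_at probe sets. The median of the members ranged from -0.63 to -0.27, and was -0.25 without _s_at, _x_at and _a_at probe sets. The list medians ranged from -2.30 to -1.74 for other bone matrix, -0.15 to -0.048 for phosphate handling, 0.20 to 0.55 for the sphingolipid route, -0.36 to -0.16 for osteocyte genes and -0.24 to -0.022 for osteoblast regulators. With the probe set of largest SD they were -2.65 for bone matrix, 0.64 for the sphingolipid route and -0.70 for osteocyte genes. The sphingolipid median was 0.32 without _s_at, _x_at and _a_at probe sets. Over probe sets read at 8 and above, phosphate handling was at -0.15, the sphingolipid route at 0.57 and osteocyte genes at -0.12. Osteoblast regulators were at 0.19, with a turned sign. The median over all 8405 genes in that setting was itself 0.21, against 0.03 in the main fit, so 0.19 lay near that median. The cause of the shift was not tested. In that setting Alpl was the only member left, so no member count or median was made.

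The replicate numbers are not said to pair arrays. The difference of replicate 1 minus replicate 2 was weakly and negatively correlated between the areas (r = -0.18 over 45037 probe sets, which are not independent). With the replicate block 0 genes were called and the difference of Ibsp was -2.0. A crossed pairing, added after seeing the data, also called 0.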
